A study of Homo sapiens with 32 samples.

Results

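Chromatin loops were examined at 10 genes of the Hippo pathway and its TEAD transcription factors: YAP1, WWTR1, TEAD1, TEAD2, TEAD3, TEAD4, LATS1, LATS2, NF2 and VGLL4. A loop was counted for a gene when at least 1 of its 5 kb anchors lay within 25 kb of the gene's 5′ end, or inside the gene body, in the GENCODE release 44 annotation of hg38. By this rule 74 of the 45629 loops in 4 loop lists belonged to the 10 genes, and each gene had at least 1 loop in at least 1 list. The lists come from in situ Hi-C, which ligates DNA ends that lie close together in the nucleus, so that a loop is a pair of distant bins that met more often than their surroundings.

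The Hippo pathway is a kinase cascade that limits cell growth. NF2 (merlin) acts upstream and helps to activate the kinases LATS1 and LATS2, which phosphorylate the coactivators YAP1 and WWTR1 (TAZ) and hold them out of the nucleus. In the nucleus YAP1 and WWTR1 have no DNA-binding domain of their own and act through TEAD1 to TEAD4, and VGLL4 competes with them for TEAD binding.

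The cells were HEK293, a human embryonic kidney line that the growth protocol in the labels calls HEK293T. Wild-type cells gave 1 list without sorbitol (15180 loops) and 1 after 1 h in 200 mM sorbitol, a hyperosmotic stress (5906 loops), with 3 Hi-C samples labelled for each condition. Cells of the genotype eGFP-YAP gave a control list (18966 loops) and a list after the same sorbitol treatment (5577 loops), with 4 samples for each. The labels do not say whether eGFP-YAP is a tag on the cell's own YAP1 gene or an added transgene, nor whether the line is 1 clone, and they mention serum starvation for 1 h before sorbitol in the eGFP-YAP cells only. The lists of the lines also carry different source names, so line and source cannot be told apart. Each list pools its condition with no replicate values, so no difference below has a replicate check or a test, and a loop that is not listed was not called, which does not show that the contact was absent. The 4 control and sorbitol lists differ in length, and the contact depth behind them is unknown.

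The loop between TEAD2 and SLC17A7, the gene of a vesicular glutamate transporter, placed both gene starts in its anchors in the sorbitol lists of both lines. The 250 bases before each of these starts are shown because both promoters lie inside the anchors (RefSeq, GRCh38.p14, minus strand, 5′ to 3′), with the GC box GGGCGG, on either strand, in capitals.
TEAD2 promoter, chr19:49362417-49362666: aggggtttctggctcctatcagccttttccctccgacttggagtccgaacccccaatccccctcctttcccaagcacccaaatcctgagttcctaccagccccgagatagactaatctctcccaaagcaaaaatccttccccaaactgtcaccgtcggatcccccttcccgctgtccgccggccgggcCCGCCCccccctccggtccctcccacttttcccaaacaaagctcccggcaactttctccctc
SLC17A7 promoter, chr19:49441528-49441777: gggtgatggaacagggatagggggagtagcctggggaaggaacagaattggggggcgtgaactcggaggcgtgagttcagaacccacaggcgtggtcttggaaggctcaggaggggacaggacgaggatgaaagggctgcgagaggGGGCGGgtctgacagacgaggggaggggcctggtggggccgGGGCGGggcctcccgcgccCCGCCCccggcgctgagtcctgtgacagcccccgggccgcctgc
The TEAD2 window holds 1 GC box and 12 CpG dinucleotides at 60.0% GC, and the SLC17A7 window holds 3 GC boxes and 17 CpG dinucleotides at 70.0% GC. Over the 34961 promoter windows of the same length, 42.7% hold a GC box, and the median is 11 CpG dinucleotides and 58.4% GC. Neither window holds the TEAD-type motif ACATTCC on either strand. That motif is in 2.96% of all windows and occurs 1 time in the YAP1 window. Promoters of 8 of the 10 genes were matched in the RefSeq table, all but TEAD1 and TEAD4.

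CTCF, the insulator protein at which cohesin-driven loops often stop, binds a directional motif. The sites below are matches with at most 1 mismatch to a 14-base CTCF motif at the anchors of loops described later, each with 8 flanking bases on both sides, written on the strand of the motif with the motif in capitals.
TEAD1 intron, chr11:12888946-12888959, minus strand: acacagagCCAGCAGGGGGCGAtcatcccc
NF2 intron, chr22:29635934-29635947, plus strand: cttgaaagCCACTAGGTGGCAAcatttact
Beside SLC17A7, chr19:49443915-49443928, minus strand: cgccgtgtCCACCAGAGGGCGCaacctttc
TEAD3 side of the TEAD3 to ARMC12 loop, chr6:35522994-35523007, plus strand: tagccttaCCACCAGGTGGCGAcacgaaca
ARMC12 side of the same loop (intron), chr6:35737713-35737726, minus strand: atgatattCCAGCAGATGGCAAtaaagagt
Beyond the 3′ end of TEAD4, chr12:3041733-3041746, minus strand: ccaaagagCCACTAGGTGGCAGcaagcagc
TAMM41 intron at a VGLL4 loop, chr3:11804179-11804192, minus strand: tctactcaCCAGCAGAGGGCAGttgatcac
The sites beside SLC17A7, beyond TEAD4 and in TAMM41 match with 0 mismatches, and the others with 1. The TEAD1 intron site lay at an anchor of 8 loops, spread over all 4 lists. The site on the TEAD3 side lies outside that gene, in an anchor within 10 kb of the start of TULP1.

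The 10 genes had 21 loops in the WT control list, 16 in the WT sorbitol list, 23 in the eGFP-YAP control list and 14 in the eGFP-YAP sorbitol list. The sorbitol list therefore held 0.762 times the control number in WT and 0.609 times in eGFP-YAP, while the whole lists stood at 0.389 and 0.294. Loops near several genes count for each of them, and over all 19970 protein-coding genes these gene and loop pairs stood at 0.623 and 0.457. The lower counts with sorbitol came from the gene bodies. With only the 25 kb around the 5′ ends counted, the genes had 8 loops in WT control and 9 in WT sorbitol, and 6 in eGFP-YAP control and 9 in eGFP-YAP sorbitol, so the direction turned (all genes 0.805 and 0.573 times). In WT this rests on 1 loop. In eGFP-YAP it rests on NF2 and TEAD2. NF2 had 1 of the 6 control and 4 of the 9 sorbitol loops, and TEAD2 had 0 and 3. TEAD4 also rose, while YAP1, WWTR1 and LATS1 fell. The 4 NF2 sorbitol loops lay closer to the start of the neighbouring gene NIPSNAP1. With the window set around the MANE Select start instead, WT held 9 control and 8 sorbitol loops and did not turn, and eGFP-YAP held 8 and 9. It also turned when each control list was shortened by peak score to the length of its sorbitol list, which left 5 loops in each control list.

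In the WT control list 8 of the 10 genes had a loop, against 59.3% of all protein-coding genes by the same rule, and in WT sorbitol 8 of 10, against 43.1%. In the eGFP-YAP control list 9 of the 10 had a loop, against 69.6%, and in eGFP-YAP sorbitol 5 of 10, against 44.8%. These genes are longer than most, with a median of 91.8 kb against 27.5 kb over all genes. With the 5′ window alone, 5, 7, 5 and 4 of the 10 genes had a loop in the WT control, WT sorbitol, eGFP-YAP control and eGFP-YAP sorbitol lists, against 48.8%, 38.3%, 59.2% and 39.9% of all genes. The shares of genes with a loop near the 5′ end were thus close to the background in all lists but WT sorbitol.

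**Figure D1:**
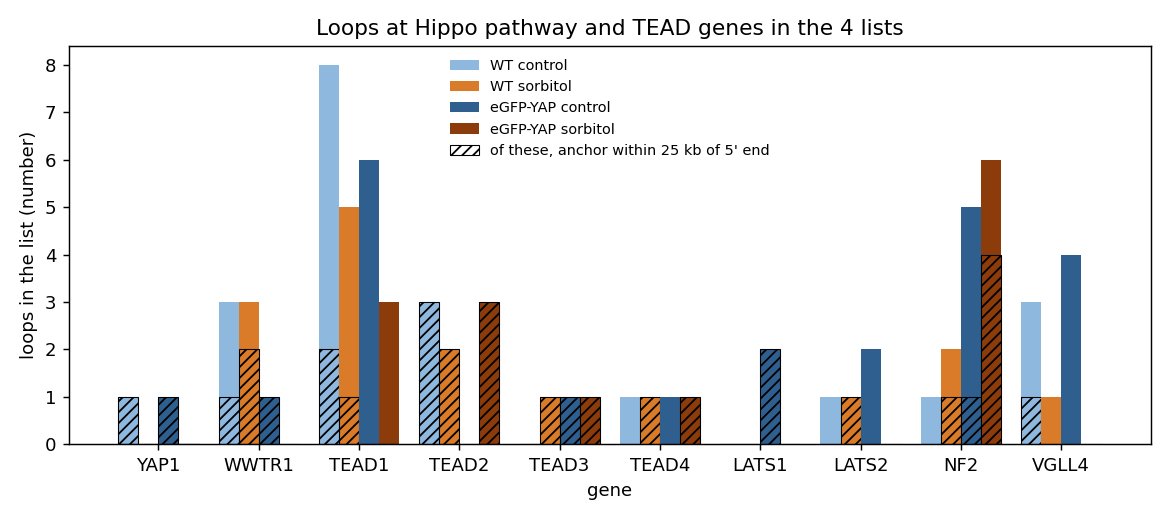
Number of loops at each of the 10 genes (y axis, loops; x axis, genes) in the 4 lists, one colour per list, with the hatched part of each bar counting loops with an anchor within 25 kb of the 5′ end. TEAD1 (8, 5, 6 and 3 loops) and NF2 (1, 2, 5 and 6 loops) had the most loops, and each bar is 1 pooled list with no replicate.

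**Figure D2:**
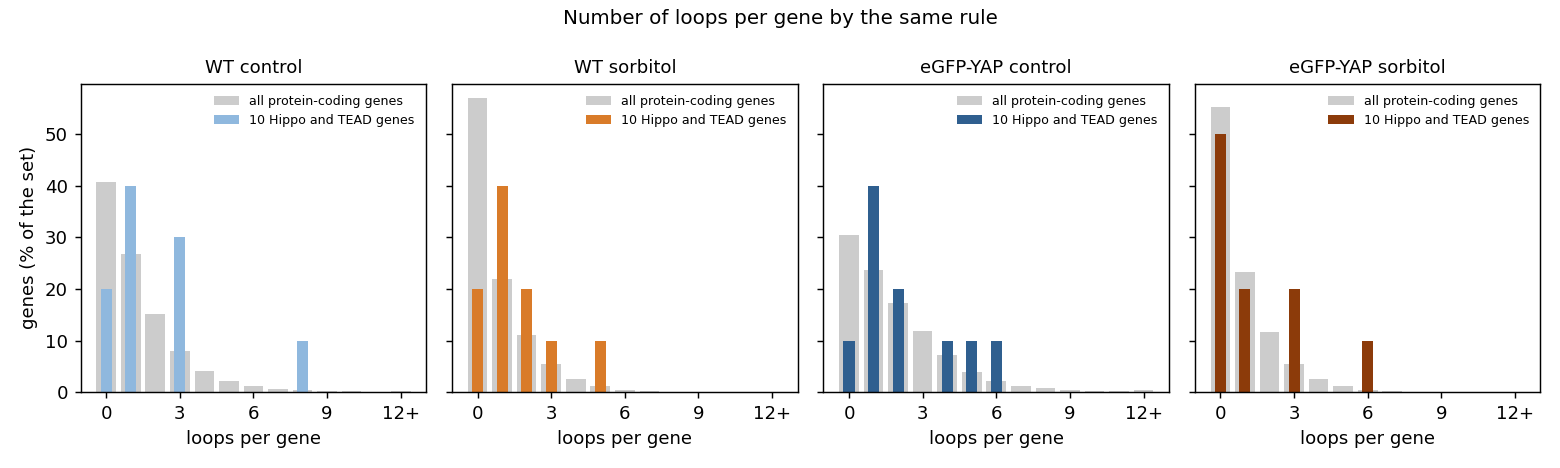
Share of genes (y axis, percent of the set) by their number of loops (x axis, 12 and more in the last bin), for all 19970 protein-coding genes in grey and the 10 genes in colour, 1 panel per list. Each of the 10 genes is 10% of its set, and 2, 2, 1 and 5 of them had 0 loops in the WT control, WT sorbitol, eGFP-YAP control and eGFP-YAP sorbitol lists.

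Neither coactivator gene had a loop in the eGFP-YAP sorbitol list, and YAP1 had none in WT sorbitol either. YAP1 (chr11:102110447-102233424, plus strand) had 1 loop in each control list and 0 in each sorbitol list. The WT control loop joined chr11:102115001-102120000, 4.55 kb inside the gene from its start, to chr11:102255001-102260000 beyond the 3′ end, at percentile 20.4 of the peak scores in its list. The eGFP-YAP control loop ended at the same downstream bin and started at chr11:102135001-102140000, at percentile 2.72. Both loops ranked low, and the second had its anchor inside the gene, 24.6 kb from the 5′ end. A further eGFP-YAP control loop, from chr11:102080001-102085000 to chr11:102260001-102265000, enclosed the whole gene and was not counted at 25.4 kb. The nearest anchor to the YAP1 start lay 234.6 kb away in WT sorbitol and 75.4 kb away in eGFP-YAP sorbitol. In eGFP-YAP sorbitol 1 loop also enclosed the gene and its 25 kb window, and in each WT list 0 did.

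WWTR1 (chr3:149517235-149736714, minus strand) had 3 loops in WT control, 3 in WT sorbitol, 1 in eGFP-YAP control and 0 in eGFP-YAP sorbitol. A loop from an anchor 16.7 kb inside the gene, chr3:149715001-149720000, to chr3:149505001-149510000 beyond the 3′ end was called in 3 lists. It stood at percentile 70.7 in WT control, at percentile 4.84 in WT sorbitol, with the gene-side anchor 1 bin away, and at percentile 57.0 in eGFP-YAP control. A loop from the 3′ part of WWTR1 to ANKUB1, chr3:149515001-149520000 to chr3:149785001-149790000, was in both WT lists, at percentile 83.1 in control and percentile 58.8 with sorbitol. The third WT sorbitol loop, chr3:149500001-149505000 in TM4SF4 to chr3:149760001-149765000, had the same percentile, 58.8. The latter anchor lay 23.3 kb upstream of the WWTR1 5′ end and within 10 kb of the start of COMMD2. The loop thus counts for WWTR1 by distance only. Its match in eGFP-YAP control lay 33.3 kb from the 5′ end, outside the rule. In eGFP-YAP sorbitol the nearest anchor to the WWTR1 5′ end was 678.3 kb away. The start of the MANE Select transcript, the annotation's reference transcript, lies 78.7 kb inside the gene, so the 25 kb window does not surround it.

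TEAD1 (chr11:12674421-12944737, plus strand) had 8 loops in WT control, 5 in WT sorbitol, 6 in eGFP-YAP control and 3 in eGFP-YAP sorbitol. It had the most of the 10 genes in total and in each list except eGFP-YAP sorbitol, where NF2 had 6. In WT control 1.2% of all protein-coding genes had at least as many. Of its 22 loops, 19 had an anchor in 1 stretch of the 3′ part of the gene, chr11:12870001-12915000, centred 218.1 kb from the start, which holds the intron CTCF site printed above. This stretch served 7 of 8, 4 of 5, 5 of 6 and 3 of 3 loops of the 4 lists. The other ends lay upstream of TEAD1, from PARVA, an actin-binding adaptor, to MICAL2, an actin-oxidising enzyme, in DNA with no protein-coding gene, or elsewhere inside TEAD1.

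The TEAD1 loop from chr11:12600001-12605000, in DNA with no protein-coding gene upstream, to chr11:12885001-12890000 was called in 3 lists. It stood at percentile 79.8 in WT control, percentile 75.4 in eGFP-YAP control and percentile 60.8 in eGFP-YAP sorbitol, and was not called in WT sorbitol. The highest ranked TEAD1 loop of WT sorbitol ran from chr11:12640001-12645000 to chr11:12895001-12900000, at percentile 73.2. In eGFP-YAP the highest ranked were chr11:12410001-12415000 in PARVA to chr11:12890001-12895000 in control (percentile 91.6) and chr11:12350001-12355000 in MICAL2 to the same gene-side bin with sorbitol (percentile 87.0). The TEAD1 start itself, in chr11:12670001-12675000, was an anchor of 2 WT control loops and 1 WT sorbitol loop, all ending inside the gene, and of 0 eGFP-YAP loops.

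TEAD2 (chr19:49340595-49362457, minus strand) had 3 loops in WT control, 2 in WT sorbitol, 0 in eGFP-YAP control and 3 in eGFP-YAP sorbitol. The bin of its start, chr19:49360001-49365000, which also holds the start of the neighbouring gene DKKL1, was an anchor in both sorbitol lists and in neither control list. Its loop to the SLC17A7 start, chr19:49440001-49445000, stood at percentile 78.3 in WT sorbitol and at percentile 90.9 in eGFP-YAP sorbitol, in identical bins. A WT control loop 1 bin away at each end, chr19:49355001-49360000 to chr19:49435001-49440000, matched them at percentile 6.07, so the loop counts as shared in WT and as sorbitol-only in eGFP-YAP. In the control lists the SLC17A7 side was also joined to KASH5, from chr19:49385001-49390000 in WT (percentile 16.7) and, at 27.5 kb from the TEAD2 5′ end and so outside the rule, from chr19:49390001-49395000 in eGFP-YAP (percentile 47.6).

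The remaining sorbitol loops of TEAD2 ended at a gene start or within 10 kb of one, with no share over all loops to set beside this. In WT sorbitol 1 went to chr19:49125001-49130000, within 10 kb of the starts of PPFIA3 and C19orf73, at percentile 29.4. In eGFP-YAP sorbitol 1 joined the TEAD2 start bin to chr19:49640001-49645000, which holds the starts of RRAS, a small GTPase, and SCAF1, at percentile 58.0. Another joined the next bin to chr19:49535001-49540000, within 10 kb of the start of RCN3, at percentile 22.7. None of these 3 loops had a match in another list.

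TEAD3 (chr6:35473597-35497079, minus strand) had 0, 1, 1 and 1 loops in WT control, WT sorbitol, eGFP-YAP control and eGFP-YAP sorbitol. In eGFP-YAP the loop joined chr6:35520001-35525000, 22.9 kb upstream of TEAD3, to the ARMC12 start, chr6:35735001-35740000, at percentile 47.4 in control and percentile 41.3 with sorbitol, in identical bins. Its CTCF sites, printed above, face each other across the loop. The anchor on the TEAD3 side lay within 10 kb of the start of TULP1, so the loop counts for TEAD3 by distance only. A WT sorbitol loop at chr6:35530001-35535000 matched it at percentile 85.5 but lay 32.9 kb from the 5′ end, outside the rule. The WT sorbitol loop that met the rule joined chr6:35505001-35510000 to chr6:35335001-35340000, within 10 kb of the start of PPARD, a nuclear receptor, at percentile 41.7.

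TEAD4 (chr12:2959330-3040676, plus strand) had 1 loop in each list, and they used different ends of the gene. In both sorbitol lists the loop joined the TEAD4 start, chr12:2955001-2960000, to the start region of TSPAN9, a membrane tetraspanin. In WT the TSPAN9 anchor was chr12:3075001-3080000, which holds the TSPAN9 start (percentile 36.7). In eGFP-YAP it was the next bin, chr12:3080001-3085000, within 10 kb of that start (percentile 9.72). No control loop of the same line matched, and neither anchor lay within 10 kb of any control anchor of that line. In the control lists the loops left from the 3′ end of TEAD4 and ran the other way, past its start. The WT control loop, chr12:3035001-3040000 to chr12:2880001-2885000, ended within 10 kb of the starts of FOXM1, a cell cycle transcription factor, RHNO1 and TULP3, at percentile 69.6. The eGFP-YAP control loop, chr12:3040001-3045000 to chr12:2845001-2850000, ended near NRIP2 and TEX52, at percentile 82.8, and its TEAD4 side holds the CTCF site printed above. The nearest control anchor to the TEAD4 5′ end was 74.3 kb away in WT and 80.7 kb away in eGFP-YAP.

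**Figure D3:**
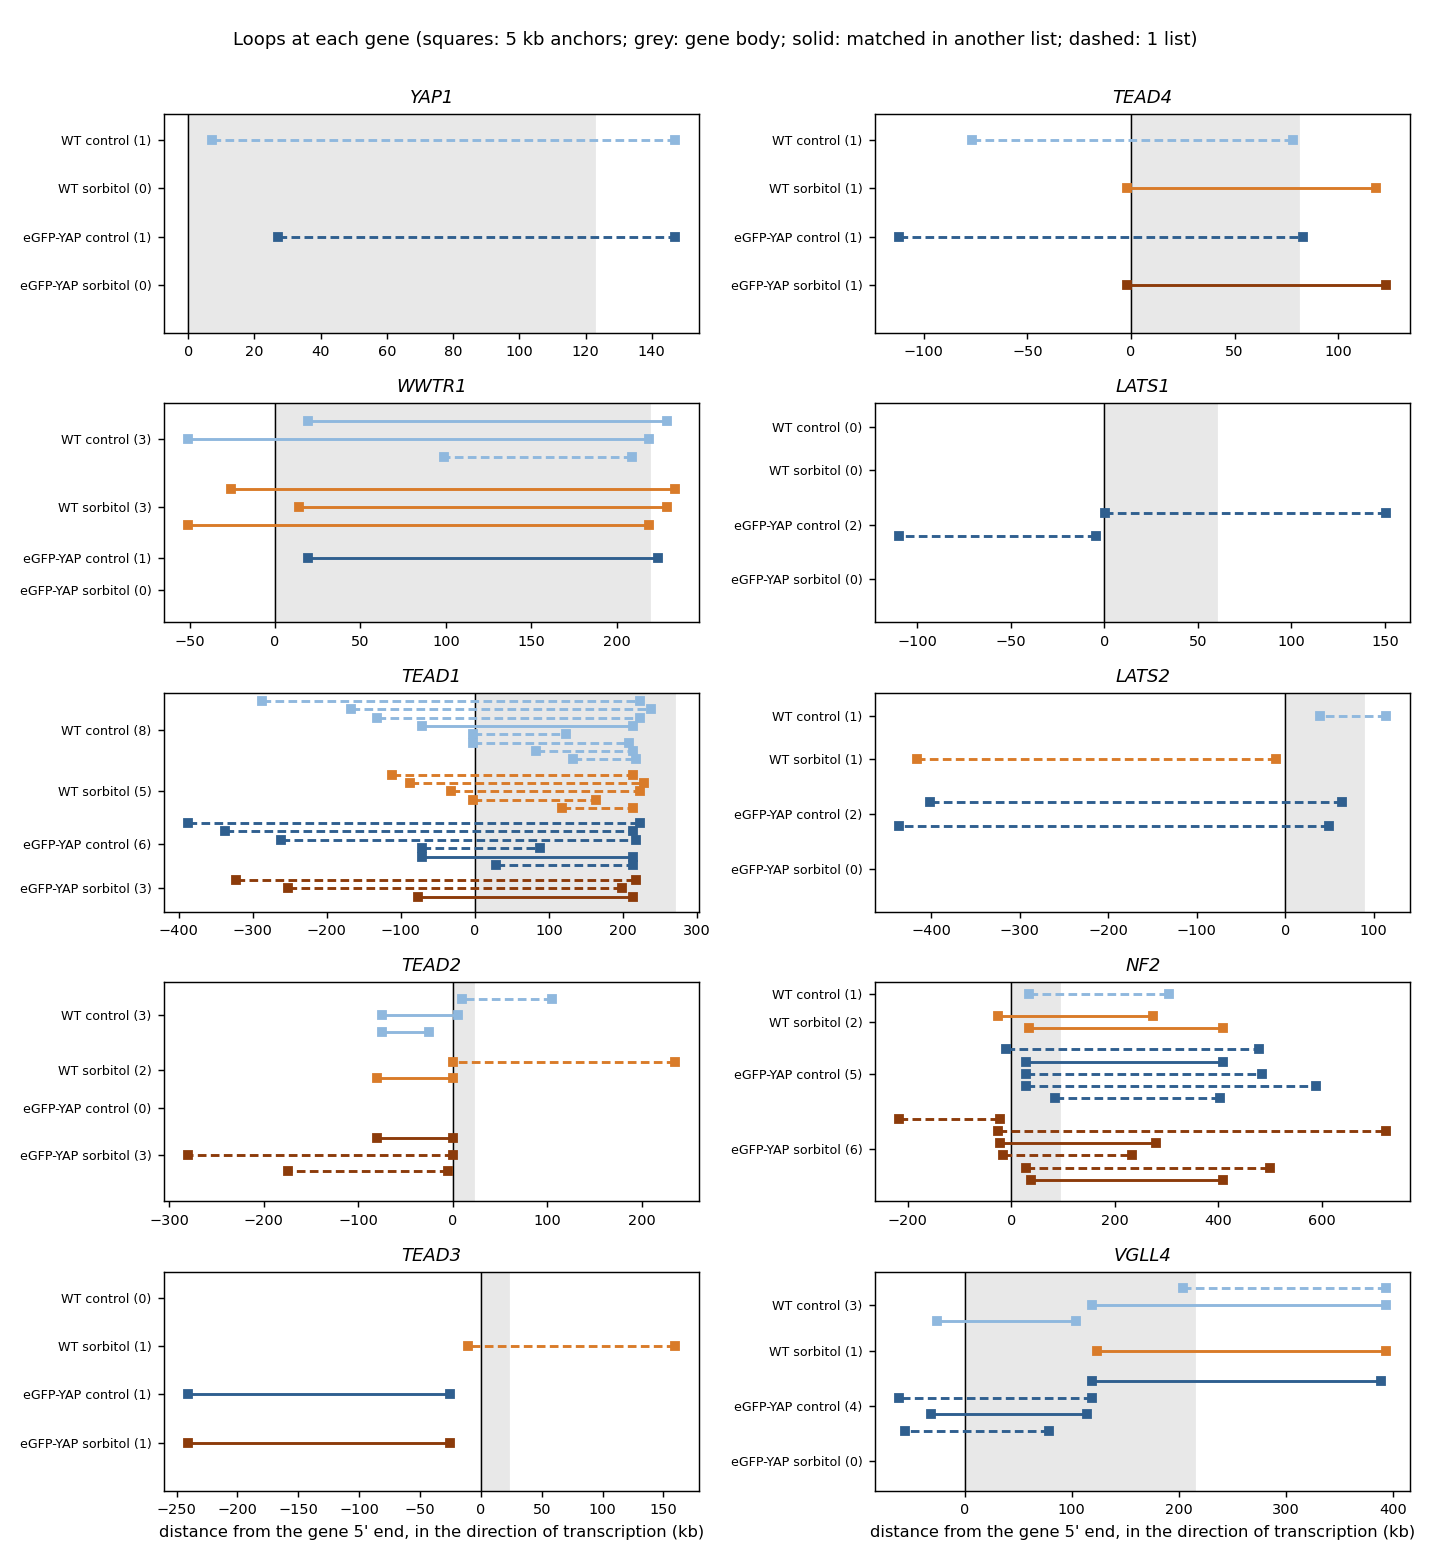
Loops at each gene drawn against the distance from its 5′ end in the direction of transcription (x axis, kb), 1 line per loop with squares at the anchor centres, grouped by list on the y axis with the number of loops. Grey marks the gene body, solid lines are loops matched in another list and dashed lines are loops of 1 list. At TEAD4 the sorbitol loops start at the 5′ end and the control loops at the 3′ end, and at TEAD1 the right-hand anchors gather around 218.1 kb.

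VGLL4 (chr3:11556069-11771350, minus strand) had 3 loops in WT control, 1 in WT sorbitol, 4 in eGFP-YAP control and 0 in eGFP-YAP sorbitol. Its highest ranked loop reached downstream to ATG7, an enzyme of autophagosome formation. It joined chr3:11375001-11380000 to chr3:11650001-11655000 at percentile 90.4 in WT control and lay 1 bin away at the ATG7 side at percentile 97.5 in eGFP-YAP control. In WT sorbitol the matching loop, chr3:11375001-11380000 to chr3:11645001-11650000, stood at percentile 16.6, and in eGFP-YAP sorbitol it was not called. The VGLL4 side of this loop lay 6.09, 1.09 and 6.09 kb from the start of the MANE Select transcript in WT control, WT sorbitol and eGFP-YAP control. That start is 127.4 kb inside the gene, whose outermost 5′ end belongs to another of its 15 transcript starts.

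A second VGLL4 loop ran upstream to TAMM41, a mitochondrial lipid enzyme, in both control lists. It joined chr3:11665001-11670000 to chr3:11795001-11800000 at percentile 41.9 in WT and chr3:11655001-11660000 to chr3:11800001-11805000 at percentile 54.5 in eGFP-YAP. The stretch chr3:11645001-11670000 was an anchor of 6 of the 8 VGLL4 loops, with 2 in WT control, 1 in WT sorbitol, 3 in eGFP-YAP control and 0 in eGFP-YAP sorbitol. In eGFP-YAP sorbitol no anchor lay nearer than 711.4 kb to the VGLL4 5′ end.

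The LATS kinase genes had few loops and none that was called in more than 1 list. LATS1 (chr6:149658153-149718105, minus strand) had 2 loops, both in eGFP-YAP control. The first joined its start, in chr6:149715001-149720000, to the start of GINM1 in chr6:149565001-149570000, at percentile 9.45. The second joined chr6:149720001-149725000 to LRP11, chr6:149825001-149830000, at percentile 10.3. In the sorbitol lists the nearest anchors lay 26.9 kb (WT) and 31.9 kb (eGFP-YAP) from the LATS1 5′ end, just outside the window, on loops that enclosed the gene. Widening the window to 50 kb would count these loops.

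LATS2 (chr13:20973036-21061586, minus strand) had 1, 1, 2 and 0 loops in the 4 lists, in the same order. The WT control loop, chr13:20945001-20950000 to chr13:21020001-21025000, stood at percentile 38.0. The WT sorbitol loop left from upstream of the start, chr13:21070001-21075000, to chr13:21475001-21480000 at percentile 65.6. In eGFP-YAP control the loops left from the gene body, to chr13:21460001-21465000 near the start of ZDHHC20 (percentile 24.7) and to chr13:21495001-21500000 in MICU2 (percentile 18.8). The WT sorbitol and eGFP-YAP control loops thus reached the same upstream neighbourhood from different gene-side bins and did not match.

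NF2 (chr22:29603556-29698598, plus strand) had 1 loop in WT control, 2 in WT sorbitol, 5 in eGFP-YAP control and 6 in eGFP-YAP sorbitol. It was 1 of the 2 genes with more loops in the sorbitol list than in control in WT (with TEAD3) and in eGFP-YAP (with TEAD2). In eGFP-YAP sorbitol 0.826% of all genes had at least as many loops. A stretch inside the gene, chr22:29630001-29645000, which overlaps 3 exons of its MANE Select transcript, was an anchor of 7 of the 14 NF2 loops, with 1, 1, 3 and 2 loops in the 4 lists, and in both WT lists its anchor held the CTCF site printed above. Its loop to the body of MTMR3, a phosphoinositide phosphatase, ended at chr22:30010001-30015000 in 3 lists. This loop stood at percentile 13.9 in WT sorbitol, percentile 20.4 in eGFP-YAP control and percentile 27.6 in eGFP-YAP sorbitol. The WT control loop ran from the same stretch to another part of MTMR3, chr22:29905001-29910000 (percentile 30.0), and the highest ranked eGFP-YAP control loop to chr22:30085001-30090000 near HORMAD2 (percentile 58.5).

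Upstream of NF2, around the start of the mitochondrial protein gene NIPSNAP1, the stretch chr22:29575001-29595000 had 0, 1, 1 and 4 loops in the 4 lists. From it, a loop to the MTMR3 start region was called in both sorbitol lists and in neither control list. In WT it joined chr22:29575001-29580000 to chr22:29875001-29880000, within 10 kb of the MTMR3 start (percentile 18.6). In eGFP-YAP it joined chr22:29580001-29585000 to chr22:29880001-29885000, which holds that start (percentile 33.5). The other eGFP-YAP sorbitol loops of the stretch ended at gene starts too, at TBC1D10A (chr22:30325001-30330000, percentile 76.0), ASCC2 (chr22:29835001-29840000, percentile 16.1) and AP1B1 (chr22:29385001-29390000, percentile 6.17). The anchors of these loops lay 13.6 to 23.6 kb upstream of the NF2 start and closer to that of NIPSNAP1, so they are NF2 loops by distance only. Without NF2 the eGFP-YAP sorbitol list held 8 loops at the other genes.

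Among the 74 loops, 59 were distinct when loops of different lists matched, meaning both anchor centres within 10 kb. Counting only loops that met the rule, 49 were in 1 list, 5 in 2 lists, 5 in 3 lists and 0 in all 4. A further match just outside the 25 kb window, described above, existed for 3 of them, at WWTR1, TEAD2 and TEAD3, and such matches are counted in the shares that follow. The loops at TEAD4 and NF2 that ran to the TSPAN9 and MTMR3 start regions were the ones called in both sorbitol lists with no match in either line's own control list. The share of all sorbitol loops of this kind is not given here, so their number cannot be set against a background.

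In WT, 4 of the 21 control loops had a match in the sorbitol list (19.0%, with a Wilson 95% interval from 7.67 to 40.0), against 7.81% of the whole control list. In eGFP-YAP it was 3 of 23 (13.0%, 4.54 to 32.1), against 9.28%. Of the WT sorbitol loops 12 of 16 had no control partner (75.0%, 50.5 to 89.8), against 79.9%, and of the eGFP-YAP sorbitol loops 11 of 14 (78.6%, 52.4 to 92.4), against 68.4%. The interval held the value of the whole list in each of these 4 cases. The intervals cover counting error only, and neighbouring loops of 1 gene are not independent.

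Between the lines, 5 of 21 WT control loops were called in eGFP-YAP control (23.8%, 10.6 to 45.1), against 40.2% of the whole list, and 4 of 23 in the opposite direction (17.4%, 6.98 to 37.1), against 32.2%. With sorbitol, 4 of 16 WT loops were called in eGFP-YAP (25%, 10.2 to 49.5), against 24.2%, and 5 of 14 in the opposite direction (35.7%, 16.3 to 61.2), against 25.7%. These intervals too held the whole-list values. Among loops at any protein-coding gene, the control lists' shares in the other line were 42.6% and 33.0%.

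By median, the loops at these genes ranked below the middle of their lists, which was not tested. Their median score percentile was 29.7 in WT control, 39.0 in WT sorbitol, 24.7 in eGFP-YAP control and 40.3 in eGFP-YAP sorbitol, whereas loops at any protein-coding gene stood at 50, 50, 49.4 and 49.2. The single values ran from 5.03 to 90.4, from 4.84 to 78.3, from 2.72 to 97.5 and from 6.17 to 90.9 in the same order, so each list held both weak and strong loops. The median distance between anchors was 155 kb in WT control, 257.5 kb in WT sorbitol, 270.0 kb in eGFP-YAP control and 285 kb in eGFP-YAP sorbitol, against 240.0, 215, 260.0 and 230.0 kb over the whole lists.

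**Figure D4:**
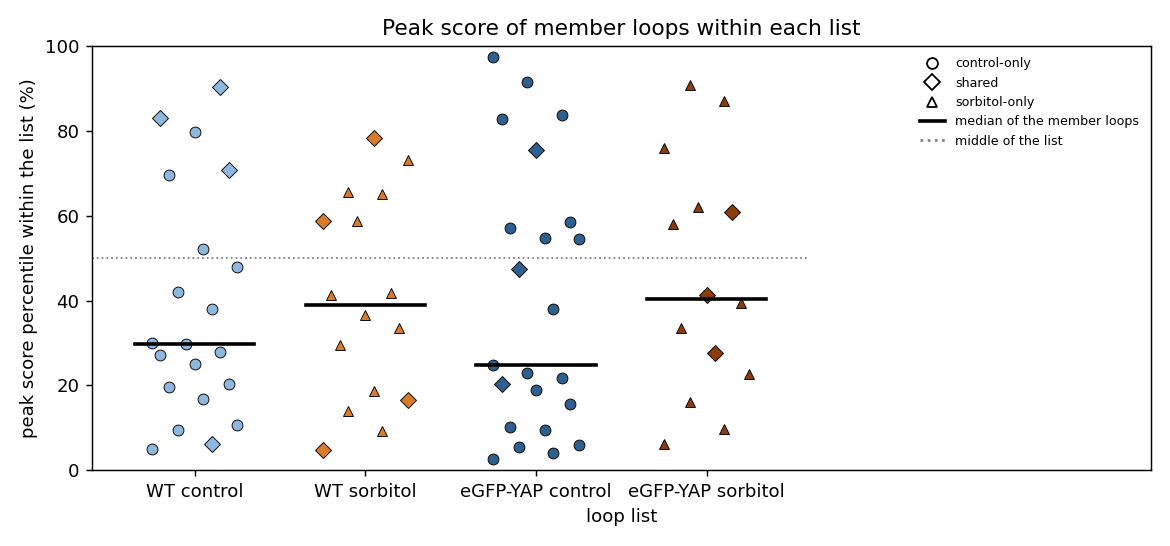
Percentile of the peak score of each loop at the 10 genes within its own list (y axis, percent; x axis, the 4 lists), with circles for control-only, diamonds for shared and triangles for sorbitol-only loops of the line, a black bar at the median and a dotted line at 50. The medians are 29.7, 39.0, 24.7 and 40.3, and the points of each list spread over most of the range.

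Gene starts lay in the anchors more often in the sorbitol lists. The gene's own 5′ end was in an anchor of 2 of 21 loops in WT control (9.52%), 4 of 16 in WT sorbitol (25%), 1 of 23 in eGFP-YAP control (4.35%) and 3 of 14 in eGFP-YAP sorbitol (21.4%). Over all gene and loop pairs the shares were 7.21%, 18.7%, 8.92% and 21.4%, so the difference between control and sorbitol lists was also there over all genes. Both anchors held a gene start in 0, 2, 1 and 4 loops, or 0%, 12.5%, 4.35% and 28.6%, against 0.626%, 8.79%, 1.23% and 13.3% of all loops. The 2 WT sorbitol loops were those of TEAD2 with SLC17A7 and of TEAD4 with TSPAN9. The 4 eGFP-YAP sorbitol loops were 2 at TEAD2, to SLC17A7 and to RRAS and SCAF1, and 2 at NF2, from NIPSNAP1 to MTMR3 and to AP1B1. The eGFP-YAP control loop was that of LATS1 with GINM1.

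Most sorbitol-only loops at these genes reused a control anchor at some end, as did most sorbitol-only loops of the whole lists. Of the 12 in WT, 2 had a control anchor within 10 kb at both ends, 9 at 1 end and 1, the TEAD4 loop, at neither, against 20.3%, 50.2% and 29.4% of all 4720 sorbitol-only loops. Of the 11 in eGFP-YAP the numbers were 3, 4 and 4, against 24.9%, 51.3% and 23.8% of 3816. The share at neither end was thus below the whole list in WT and above it in eGFP-YAP.

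A CTCF motif lay in 7 of 42 anchors in WT control (16.7%), 8 of 32 in WT sorbitol (25%), 13 of 46 in eGFP-YAP control (28.3%) and 8 of 28 in eGFP-YAP sorbitol (28.6%). Over all anchors of these lists the shares were 24.9%, 21.2%, 34.1% and 28.2%, each inside the Wilson 95% interval of the 10 genes (8.32 to 30.6, 13.3 to 42.1, 17.3 to 42.5 and 15.3 to 47.1). Both anchors held a motif in 0, 1, 1 and 2 loops, against 7.56%, 5.4%, 14.2% and 11.3% of all loops. The TEAD3 to ARMC12 loop held motifs facing each other in both eGFP-YAP lists, and the TEAD2 to SLC17A7 loop held motifs on the same strand at both ends in both sorbitol lists. The TEAD-type motif ACATTCC, on either strand, lay in 50%, 56.2%, 58.7% and 32.1% of anchors, against 51.2%, 47.7%, 51.2% and 47.1% of all anchors. Each whole-list share lay inside the Wilson 95% interval of the 10 genes (35.5 to 64.5, 39.3 to 71.8, 44.3 to 71.7 and 17.9 to 50.7). A bin used by several loops counts for each of them. A motif match is a match of letters, and no binding was measured here.

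The same rule was applied to 41 other Hippo pathway genes, from the MST and MAP4K kinases to the STRIPAK subunits and FAT cadherins. Of these, 33 had a loop in WT control (80.5%), 20 in WT sorbitol (48.8%), 32 in eGFP-YAP control (78.0%) and 20 in eGFP-YAP sorbitol (48.8%), and 5 had none in any list. Over all protein-coding genes the shares were 59.3%, 43.1%, 69.6% and 44.8%, and the 41 genes had a median length of 114.8 kb against 27.5 kb. Their loops numbered 73, 31, 87 and 37. In WT 7 of the genes had more loops in the sorbitol list and 22 had fewer, and in eGFP-YAP 6 had more and 26 fewer. Gene and loop pairs over all protein-coding genes were also fewer with sorbitol, at 0.623 (WT) and 0.457 (eGFP-YAP) times control. The share of all genes with fewer loops is not given here. Of the control loops 6.85% in WT and 9.2% in eGFP-YAP had a match in the sorbitol list, against 7.81% and 9.28% of the whole lists. WWC2, a scaffold that activates LATS kinases, had the most loops (14 over the 4 lists), followed by MAP4K5 (13), a kinase that can act beside the MST kinases, and by PTPN14, a phosphatase that binds YAP1, and RASSF1, a regulator of the MST kinases (11 each). The sorbitol-only loops called in both lines were at PTPN14 and RASSF1, with no share over all loops to set beside this. The PTPN14 loop joined its start region, chr1:214545001-214550000, to the start region of SMYD2, chr1:214275001-214280000, at percentile 57.0 in WT and percentile 16.4 in eGFP-YAP. The RASSF1 loop joined the IFRD2 start, chr3:50290001-50295000, to chr3:50360001-50365000, beside NPRL2 and TMEM115, at percentiles 83.4 in WT and 78.9 in eGFP-YAP, and met the rule by its distance from RASSF1.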

How the data were processed

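Contacts were measured by in situ Hi-C after MboI digestion, per the labels' protocols, and the authors deposited 1 loop list per condition. The column names belong to SIP, which calls loops from contact maps, per the file headers, and the submitters' processing notes name hg38 (GRCh38). The caller's version and settings, the aligner and which replicates entered a list are not given in the sources used here. The deposited peak score of each loop is the caller's own score, with no fixed scale, and was used as its percentile within its list. SIP's probability of enrichment, a fraction as deposited, was 0.900 or higher for all loops, so no further limit was set on it.

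Of the series' 32 samples, 14 belong to the 4 lists' conditions, and 18 were not analysed here. Anchors were set against GENCODE release 44 on hg38. No loop lay beyond a chromosome end (0 loops), and the share of anchors with a CTCF motif was 24.9%, 21.2%, 34.1% and 28.2% at the listed positions and 9.91%, 12.2%, 9.99% and 12.7% when moved by 100 kb. Loops matched when both anchor centres lay within 10 kb on 1 chromosome. Partner genes were protein-coding genes that start in the partner anchor, failing that within 10 kb of it, failing that contain it. Loops were given with coordinates when they ranked highest for a gene in a list, were matched in several lists or were sorbitol-only in both lines, and some others were added after their values were seen. Wilson 95% intervals are given for shares. No test was possible with 1 list per condition. The matching and motif code was tested on simulated data (Python 3.11.15, numpy 2.4.6, pandas 2.3.3). The genes, lists and settings were chosen with earlier results of these data known.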

Additional observations from a re-analysis of the deposited data

Results flagged for a closer look

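TEAD2 was the gene at which the lines went opposite ways. The sorbitol list held fewer TEAD2 loops than the control list in WT, a difference of -1 loop (sorbitol minus control, 3 to 2 loops), and more in eGFP-YAP, a difference of 3 loops (0 to 3). Each line has 1 pooled list per condition, and this contrast between the lines was not tested. Line and source of the lists cannot be told apart. The 3 WT control loops include 1 between KASH5 and SLC17A7, counted because its anchor lay 22.5 kb from the TEAD2 5′ end. The WT difference of -1 rests on this loop. Its match in eGFP-YAP control lay 27.5 kb from the TEAD2 5′ end, outside the 25 kb window, and was not counted. The opposite directions therefore depend on where the window ends.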

How the results depend on the processing

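Of 116 values recomputed under 15 alternatives, 72 stayed within 1.5 times the main count or, for shares, inside its Wilson interval, and 44 moved. Windows of 50 kb, merging neighbouring loops, the MANE Select start in place of the 5′ end and every transcript start moved none of the counts recomputed. The match and motif shares were not recomputed under these settings. The 50 kb window took WT sorbitol from 16 to 24 loops, at the limit of 1.5 times. Values follow the order WT control, WT sorbitol, eGFP-YAP control and eGFP-YAP sorbitol. With the gene bodies left out the genes had 8, 9, 6 and 9 loops, and 5 genes had a loop in each control list. With the MANE Select start and no gene body they had 9, 8, 8 and 9 loops, and 5 genes in each control list. Sorbitol counts were thus above control in both lines with the 5′ end, and in eGFP-YAP but not WT with the MANE Select start. With the 5′ end, NF2 had 4 of the 9 eGFP-YAP sorbitol loops and 1 of the 6 control loops. TEAD2 had 3 and 0, and the eGFP-YAP difference rests on these genes. In the upper 50% of each list by score there were 6, 6, 9 and 6 loops at 4, 4, 5 and 3 genes. With the control lists shortened to their sorbitol lists, the controls held 5 and 5 loops at 4 and 3 genes. A 10 kb window left 9 loops in eGFP-YAP sorbitol, leaving out NF2 left 8 there, and leaving out TEAD1 left 13 in WT control. Identical bins as the matching rule gave 4.76% and 4.35% of control loops called again, 93.8% and 92.9% of sorbitol loops with no control partner (WT, eGFP-YAP), and 4.76%, 6.25%, 4.35% and 7.14% of loops called in the other line. Matching at 25 kb gave 50% of WT sorbitol loops with no control partner. Anchors with a CTCF motif were 0%, 3.12%, 4.35% and 3.57% with no mismatch, and 45.2%, 43.8%, 52.2% and 53.6% with anchors widened by 5 kb on each side. The cause of these shifts was not tested, beyond the smaller number of loops that the score limits and windows leave. The alternatives with other gene starts and without NF2 were chosen after seeing the data. No paired analysis was possible because each condition has 1 list with no replicate columns. The lists give their lengths but no contact depth, and a loop missing from a list was not called there, which does not show that the contact was absent.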
